A study of Mus musculus with 18 samples.

Results

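The genes described here are 10 markers of macrophages, namely Cd68, Adgre1, Csf1r, Mrc1, Lyve1, Trem2, Timd4, Folr2, Vsig4 and Cd163, out of 49184 genes for which counts could be summed. They were picked by name, as a panel that covers macrophages in general and resident macrophages in particular, with earlier results of these data known. All 10 passed the filter on low counts. They were followed through 18 RNA-seq libraries of mouse knee cartilage, from knees with a ruptured anterior cruciate ligament (ACL), from the opposite knees of the same mice and from naïve mice.

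Macrophages are phagocytes that live in almost every tissue and need signalling through the receptor Csf1r to survive. In the knee they are known from the synovial lining and sublining, the fat pad, the bone marrow and bone surfaces, whereas healthy articular cartilage has no blood vessels and holds chondrocytes as its resident cells. Resident macrophages of many tissues carry Timd4, Lyve1, Folr2, Mrc1, Vsig4 or Cd163, and cells that derive from blood monocytes often lack the first of these.

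The animals were wild-type male C57Bl/6J mice, 12 weeks old at the time of loading, as the methods give it. A single load of 12 N on the flexed right knee ruptured its ACL, under isoflurane and with buprenorphine given to the loaded mice. The left knee of the same mice served as the contralateral control. Naïve mice were not loaded, and their labels place them at day 7, so day 1 libraries had no naïve group of their own day. There were 6 naïve libraries, with 3 libraries each from injured and from contralateral knees at day 1 and at day 7. Each library was a pool of cartilage from several mice. A pool held 4 mice by the series text, and the group sizes in the methods are 6 mice at day 1, 12 at day 7 and 6 naïve mice. A footnote to the study's design scheme explains the pooling of 4 mice by a partial loss of cartilage at day 7. Pool sizes may therefore have differed between groups. The part of pool size and of cartilage loss in the day 7 values was not tested. Left and right knees of the naïve mice were pooled apart, so some naïve libraries came from the same animals, and no label ties a knee to a mouse. The study's own model allowed for samples from the same mouse pool, which could not be done here, so all tests below treat the libraries as independent. The series text names medial caps, whereas the sample entries name femoral condyle caps detached at the tidemark.

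Library totals ran from 16074762 to 41794005 estimated counts, with a median of 25465706. The labelled tissue was checked against marker genes. Chondrocyte markers were present, with Col2a1, the main cartilage collagen, at 3240 ± 886 CPM in naïve libraries (SD, n = 6), where CPM is the count scaled to library size after TMM normalization. The 9 erythroid markers summed to 34590 ± 3944 CPM and the 11 neutrophil markers to 12410 ± 1977 CPM in the same libraries, so that RNA of blood or marrow cells was also in the samples. Their part in the macrophage values was not tested. In bulk tissue, fewer macrophages and less RNA per macrophage cannot be told apart.

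Some libraries stood apart from the rest of their group. Day 7 contralateral library 1 had 42.5% of its counts in 10 genes, against 16.6% to 29.8% in the 17 others, and 0.914% mitochondrial counts. Naïve library 5, day 1 injured library 2 and day 1 contralateral library 3 had the highest summed CPM of 8 synovial fibroblast markers outside the day 7 injured group, at 1662, 2018 and 1891, where the other libraries outside that group reached at most 1242. Most of these sums was Prg4, which encodes lubricin and is made by the synovial lining and by superficial chondrocytes. The same 3 libraries had Ccl2, a chemokine that attracts monocytes, at 17.9, 15.1 and 13.3 CPM, against at most 3.13 CPM elsewhere. Ccl2 is given here because of these values. For a part of the day 7 results, values without these 3 libraries are given as well. They were left out after their values had been seen, and for a gene in which one of them was the highest or lowest of its group the fold change then moves by construction, so every value without them is a description and not a test.

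Promoter sequences are shown for the genes that carried the differences described below, Timd4 and Cd163, and for Folr2, another resident macrophage gene that was not called. RefSeq promoters of the GRCm38.p6 build, from 250 bases before to 50 bases after a gene start, were used for 7 of the 10 genes. They were searched on both strands for GAGGAA, a core that the macrophage factor PU.1 can bind, and for a composite of ETS and IRF sites, GGAA followed after any 2 bases by GAAA, that was chosen after the sequences had been read. The composite occurred in 3 of the 7 genes, Timd4, Folr2 and Cd68, and in 2.72% of all 32851 promoters. GAGGAA occurred in 4 of the 7 genes, Cd68, Mrc1, Trem2 and Vsig4, and in 28.3% of all promoters. Promoters of Adgre1, Csf1r and Lyve1 were not searched, so these counts say nothing about those genes. In Cd68 the matches of both motifs overlap. Capitals mark the composite, which lies 72 bases before the Timd4 start (chr11:46810549-46810848, plus strand) and 136 bases before the first of 2 Folr2 starts (chr7:101857141-101857440, minus strand). The Cd163 window (chr6:124304401-124304700, plus strand) held neither motif. A match is a description of letters and not a binding site.
Timd4: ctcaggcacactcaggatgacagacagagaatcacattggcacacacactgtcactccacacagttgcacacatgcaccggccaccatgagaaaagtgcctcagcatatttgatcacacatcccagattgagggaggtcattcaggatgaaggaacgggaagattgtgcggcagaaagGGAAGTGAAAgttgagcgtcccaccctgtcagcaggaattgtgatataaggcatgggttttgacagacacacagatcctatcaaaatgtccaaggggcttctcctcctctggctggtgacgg
Folr2: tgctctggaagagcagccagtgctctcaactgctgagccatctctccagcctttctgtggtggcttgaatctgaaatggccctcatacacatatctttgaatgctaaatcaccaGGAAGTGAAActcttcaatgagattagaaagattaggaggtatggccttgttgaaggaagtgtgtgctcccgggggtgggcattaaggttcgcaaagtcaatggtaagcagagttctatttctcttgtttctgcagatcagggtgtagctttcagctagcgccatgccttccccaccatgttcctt
Cd163: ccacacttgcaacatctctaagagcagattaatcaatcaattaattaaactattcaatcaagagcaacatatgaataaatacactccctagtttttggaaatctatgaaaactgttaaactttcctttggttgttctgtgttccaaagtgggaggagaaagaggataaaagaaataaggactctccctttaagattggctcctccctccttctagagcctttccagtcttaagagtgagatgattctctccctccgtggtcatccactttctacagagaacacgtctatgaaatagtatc

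Per length, Csf1r was the most abundant of the 10 genes in naïve cartilage, with 28.6 ± 5.06 TPM (a length-scaled share of all transcripts, SD, n = 6). Cd68 followed with 22.1 ± 4.95 TPM, Mrc1 with 14.4 ± 1.49 TPM, Adgre1 with 12.2 ± 2.79 TPM and Cd163 with 7.17 ± 0.616 TPM. The naïve libraries of Csf1r and Cd68 overlapped in TPM, as did those of Mrc1 and Adgre1. Folr2, Trem2 and Lyve1 came next and lay within their spread of each other, at 4.13 ± 0.735, 4.05 ± 2.74 and 3.91 ± 1.53 TPM. Vsig4 had 2.19 ± 0.631 TPM and Timd4 had the lowest level, 1.10 ± 0.201 TPM. Timd4 rested on 61 to 124 estimated counts per naïve library and on 31 to 42 in day 7 injured libraries, which limits its precision.

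The comparison of day 7 injured with naïve cartilage asks how the macrophage panel stood 1 week after rupture. Timd4 was the only one of the 10 genes to be called, meaning a false discovery rate (FDR) of at most 0.05 and a change of at least 1.5-fold, and it was lower after injury. Cd163 was also lower, by less than 1.5-fold. Adgre1 and Csf1r were slightly higher, and none of the 10 rose by 1.5-fold with an FDR of at most 0.05. Of all 21129 genes tested, 10.4% were called higher and 6.11% lower, and with 10 genes the counts of 0 and 1 lie near what these shares give. The median log2 fold change was 0.25 over the 10 genes and -0.04 over all genes. Without a limit on the fold, 2 of the 10 were higher and 2 lower, where 18.7% and 11% of all genes were.

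**Figure D1:**
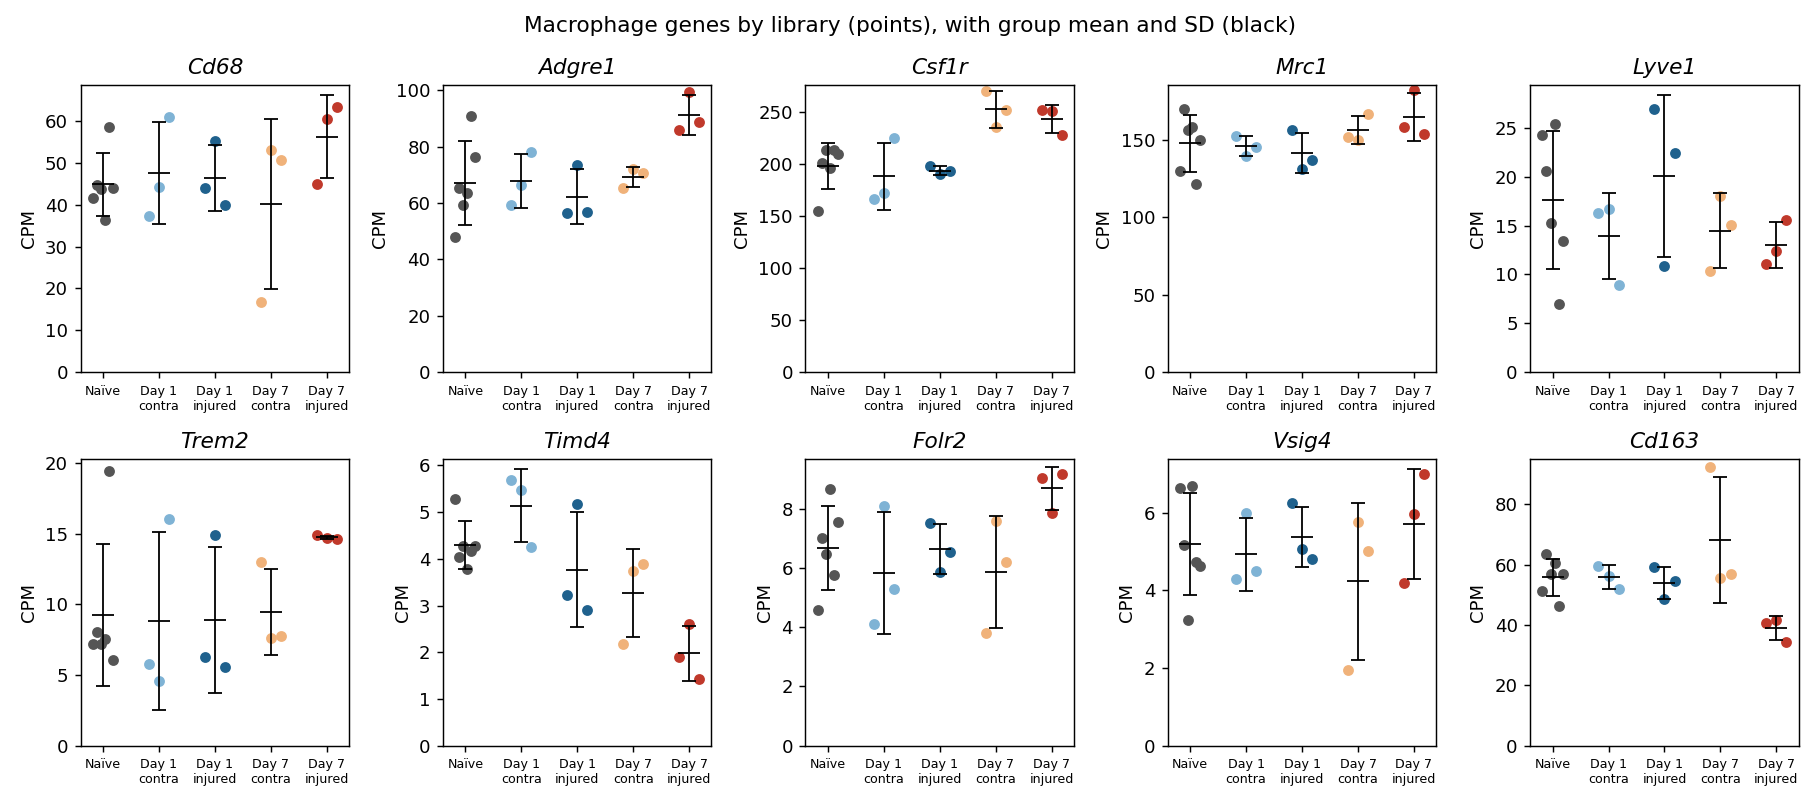
Normalised level of each of the 10 macrophage genes (CPM, linear axes from 0) in every library of the 5 groups. Points are libraries and black marks are the group mean with SD. For Timd4 and Cd163 the 3 day 7 injured libraries lie below all 6 naïve libraries, and 1 naïve library stands above the others for Trem2.

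Timd4 encodes Tim4, a receptor for phosphatidylserine with which resident macrophages take up dying cells (chromosome 11, 46810800 to 46844332, GRCm38). Its levels were 1.91, 2.60 and 1.43 CPM in the day 7 injured libraries, and in naïve libraries the lowest was 3.78, the median 4.23 and the highest 5.28 CPM. All 3 injured libraries lay below every naïve library. Timd4 was 2.17-fold lower (log2 fold change -1.12, SE 0.22, FDR 0.00148), and it was called in the same direction when any 1 library was left out, with log2 fold changes from -1.35 to -0.92. Day 1 injured libraries had 3.23, 5.18 and 2.90 CPM, and the day 7 injured libraries lay below these too (log2 fold change -0.93, SE 0.25, FDR 0.0130). That call was lost without day 1 injured library 2 (log2 fold change -0.64, FDR 0.0604) and without day 7 injured library 3 (-0.74, FDR 0.0667), as well as without the 3 libraries that stood apart (-0.66, FDR 0.0555). Day 7 contralateral libraries had 2.18, 3.74 and 3.89 CPM, of which the first, library 1, lay within the range of the injured ones. Against them the log2 fold change was -0.76 with an FDR of 0.0570, and -0.94 with an FDR of 0.0190 without contralateral library 1. Without the 3 libraries that stood apart it was -0.76 with an FDR of 0.0399.

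Cd163 encodes the scavenger receptor for complexes of haemoglobin and haptoglobin (chromosome 6, 124304656 to 124330527). It was at 40.6, 41.7 and 34.4 CPM in the day 7 injured libraries, against a lowest naïve level of 46.4, a median of 56.9 and a highest of 63.35 CPM. The groups did not overlap. Cd163 was 1.42-fold lower than in naïve cartilage (log2 fold change -0.50, SE 0.10, FDR 0.00164), short of the fold limit, and 1.49-fold lower without the 3 libraries that stood apart (log2 fold change -0.57, FDR 2.57e-04). With transcripts annotated as protein coding alone it passed that limit, at a log2 fold change of -0.61. Day 1 injured libraries had 59.1, 48.5 and 54.45 CPM, all above the day 7 injured ones (log2 fold change -0.46, SE 0.11, FDR 0.0101). Day 7 contralateral libraries had 92.2, 55.7 and 56.8 CPM. Against the contralateral knee, Cd163 was the only member called, 1.75-fold lower (log2 fold change -0.81, SE 0.16, FDR 0.00204). In CPM, contralateral library 1 had the highest Cd163 and the lowest Cd68, Folr2 and Vsig4 of the 18 libraries. On the TPM scale its Cd163 was 4.36, inside the range of the day 7 injured libraries (3.686 to 4.364). Contralateral libraries 2 and 3 had 9.15 and 7.65 TPM. Without contralateral library 1 the log2 fold change of Cd163 was -0.51 with an FDR of 0.00779, which ends the call by fold. Fitted on the compared groups alone, with their 3 libraries each, the FDR was 0.0513.

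Cd163 counts were split over 3 transcripts. Cd163-201, a coding transcript with 64.2% of the estimated counts, was at 17.9, 27.2 and 15.35 CPM in day 7 injured libraries and between 29.3 and 47.1 CPM in naïve ones. The other coding transcript, Cd163-202, was at 17.2, 10.6 and 14.1 CPM after injury and between 7.39 and 14.7 CPM in naïve libraries, so these overlapped. The split between transcripts of one gene is an estimate of the aligner.

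Vsig4, Folr2, Lyve1 and Mrc1 are further surface proteins of resident macrophages. Vsig4, a complement receptor, was at 4.18, 5.96 and 6.98 CPM in day 7 injured libraries, and the naïve libraries spanned 3.25 to 6.69 CPM with a median of 4.95. The groups overlapped (log2 fold change 0.16, SE 0.22, FDR 0.615). Folr2, the folate receptor beta, was at 9.04, 7.86 and 9.16 CPM after injury and between 4.59 and 8.65 CPM in naïve libraries, with a median of 6.74. The injured libraries lay in the upper part of the naïve range or above it, and the difference did not pass the test (log2 fold change 0.40, SE 0.20, FDR 0.153). Folr2 was above all 3 day 7 contralateral libraries, which had 3.82, 7.58 and 6.18 CPM, with an FDR of 0.161 (log2 fold change 0.55), and above the day 1 injured libraries at 7.53, 5.85 and 6.55 CPM, with an FDR of 0.217 (log2 fold change 0.41). Mrc1, the mannose receptor CD206, was at 158.4, 182.5 and 154.0 CPM in day 7 injured libraries, and at a lowest of 121.6, a median of 153.4 and a highest of 170.0 CPM in naïve libraries (log2 fold change 0.18, SE 0.10, FDR 0.200). The 95% interval of its log2 fold change, -0.02 to 0.375, excludes a change of 1.5-fold in either direction.

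Lyve1, a hyaluronan receptor, is shared by some resident macrophages and lymphatic endothelium. It varied widely, with 7.00, 17.9 and 25.4 CPM as the lowest, median and highest naïve levels and 11.1, 12.4 and 15.6 CPM in day 7 injured libraries. All injured libraries were within the naïve range (log2 fold change -0.42, SE 0.36, FDR 0.403). The lymphatic genes Prox1, the master transcription factor of this endothelium, and Ccl21a, a chemokine that guides leukocytes into lymphatics, were both called higher in the same comparison, with log2 fold changes of 1.46 and 1.49. Mmrn1, the most abundant gene of the lymphatic list, had a log2 fold change of -0.40.

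Cd68, Adgre1 and Csf1r mark macrophages in general. Adgre1, which encodes F4/80, was at 85.8, 99.35 and 88.7 CPM in day 7 injured libraries, and the lowest, median and highest naïve levels were 47.8, 64.4 and 90.95 CPM. Only naïve library 5 reached the injured range. Adgre1 was 1.37-fold higher (log2 fold change 0.46, SE 0.16, FDR 0.0433), below the fold limit, and 1.46-fold higher without the 3 libraries that stood apart (log2 fold change 0.55, FDR 0.00306). It was above the day 1 injured libraries at 56.3, 73.6 and 56.9 CPM by 1.48-fold (log2 fold change 0.57, FDR 0.0400; 0.68 with an FDR of 0.00630 without the 3 libraries, of which day 1 injured library 2 was the highest of its group), and above the contralateral libraries at 65.2, 72.0 and 70.7 CPM without passing the test (log2 fold change 0.40, FDR 0.136).

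Csf1r, the receptor for Csf1 and Il34, was at 251.7, 250.5 and 227.3 CPM after 7 days of injury. In naïve libraries it was at a lowest of 154.4, a median of 205.4 and a highest of 213.5 CPM. All day 7 injured libraries were above all naïve ones (1.24-fold, log2 fold change 0.31, SE 0.11, FDR 0.0421). The day 7 contralateral libraries were as high, at 270.1, 235.2 and 252.0 CPM, and also above every naïve library, with a log2 fold change of 0.35 and an FDR of 0.248. Csf1r was above the 3 day 1 injured libraries, which had 198.1, 189.9 and 192.7 CPM (log2 fold change 0.35, FDR 0.0613). Cd68, a lysosomal protein of phagocytes, was at 45.05, 60.4 and 63.4 CPM after injury and at a lowest of 36.3, a median of 43.9 and a highest of 58.7 CPM in naïve libraries. The groups overlapped, and the log2 fold change of 0.35 (SE 0.17) had an FDR of 0.139. Without the 3 libraries that stood apart it was 0.42 with an FDR of 0.0126, still below the fold limit, and naïve library 5 was the highest naïve library for Cd68. Day 7 contralateral library 1 had 16.7 CPM of Cd68, the lowest of the 18 libraries.

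Taking all 10 genes, 1 lay higher in every day 7 injured library than in every naïve one (Csf1r) and 2 lay lower (Timd4 and Cd163). Of all genes tested, 17.4% lay higher and 10.8% lower by the same measure. On the TPM scale, which is not corrected for composition, Timd4 (1.10 ± 0.201 in naïve, n = 6, and 0.405 ± 0.122 in day 7 injured libraries, n = 3, SD) and Cd163 (7.17 ± 0.616 and 4.03 ± 0.339) kept their direction without overlap, and Adgre1 kept it with overlap (12.2 ± 2.79 and 14.3 ± 2.02). The means of Csf1r (28.6 ± 5.06 and 27.7 ± 2.44), Mrc1 (14.4 ± 1.49 and 13.1 ± 1.99) and Vsig4 (2.19 ± 0.631 and 1.97 ± 0.782) turned the other way on that scale, within the spread of the libraries.

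**Figure D2:**
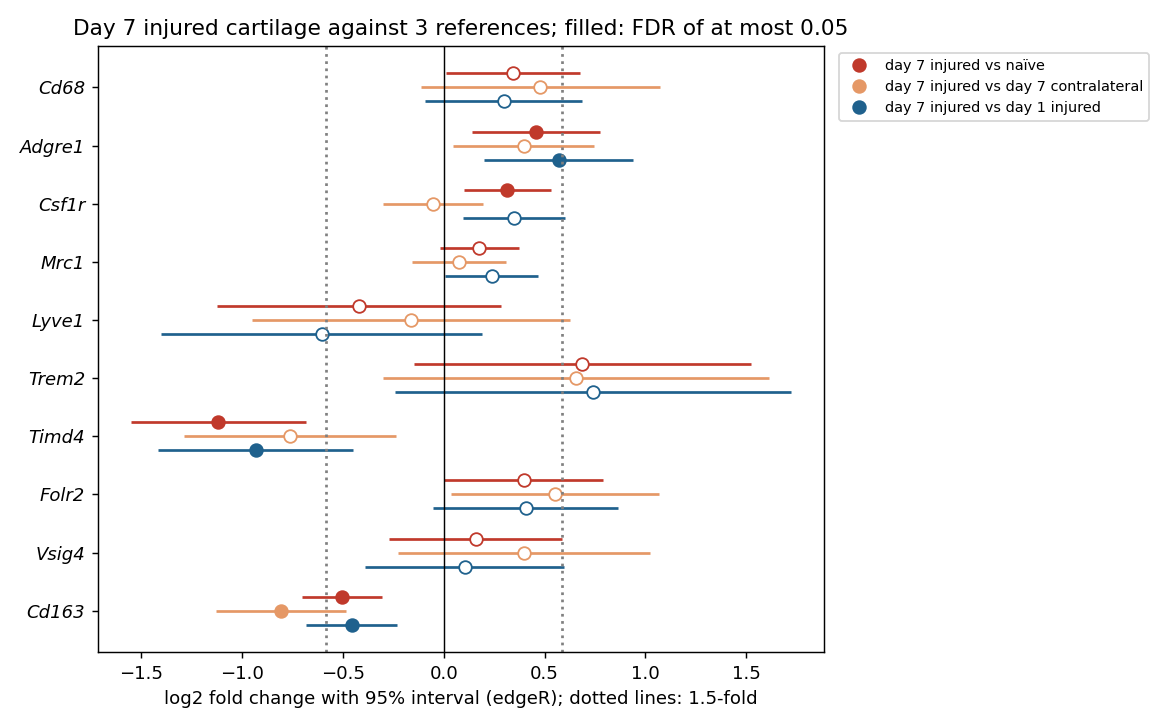
The log2 fold change of each macrophage gene in day 7 injured cartilage against naïve, day 7 contralateral and day 1 injured cartilage, from edgeR's quasi-likelihood test. Points are estimates, lines are 95% intervals by a normal approximation, filled points have an FDR of at most 0.05 and dotted lines mark 1.5-fold. Timd4 and Cd163 lie to the left of 0 in all 3 comparisons.

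Trem2 encodes a lipid receptor of macrophages, microglia and osteoclasts that signals through Tyrobp (chromosome 17, 48346401 to 48354147). Its level was nearly the same in the 3 day 7 injured libraries, at 14.9, 14.7 and 14.7 CPM. In naïve libraries it was between 6.06 and 8.02 CPM in all but library 5, which had 19.5 CPM, the highest of the study. Day 1 contralateral library 3 with 16.03 CPM and day 1 injured library 2 with 14.9 CPM were as high, and the other libraries of these groups ranged from 4.60 to 6.27 CPM. Thus the highest libraries outside the day 7 injured group were the same 3 that stood apart for Prg4 and Ccl2. With them, Trem2 was 1.61-fold higher in day 7 injured than in naïve cartilage and did not pass the test (log2 fold change 0.69, SE 0.43, FDR 0.239). Without naïve library 5 it was called (log2 fold change 1.05, FDR 0.0402). In a fit without all 3 libraries, added after these values had been seen, it was 2.05-fold higher (log2 fold change 1.04, SE 0.11, FDR 1.27e-05), Lyve1 was called 1.52-fold lower (log2 fold change -0.60, SE 0.20, FDR 0.0385) and Timd4 was called 2.22-fold lower. In that fit 10.6% of all genes were called higher and 6.89% lower. The libraries left out include the naïve library with the highest Trem2 and the lowest Lyve1, so leaving them out moves both genes in these directions by construction, and the values are a description and not a test of either gene. Day 7 contralateral libraries had 13.01, 7.62 and 7.77 CPM of Trem2, where the first is the library with the unusual composition, and against the injured knees the log2 fold change was 0.65 with an FDR of 0.394, and 0.66 with an FDR of 0.0214 without the 3 libraries.

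**Figure D3:**
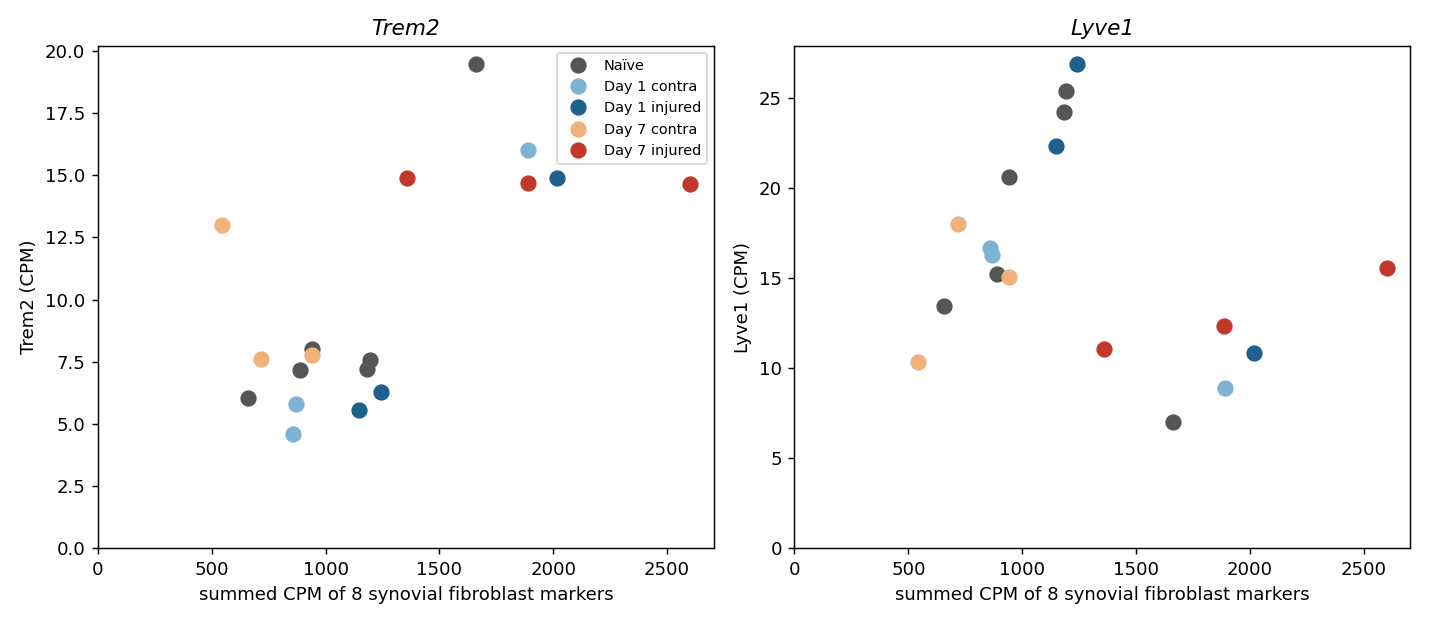
Level of Trem2 (left) and Lyve1 (right) in CPM against the summed CPM of 8 synovial fibroblast markers in each of the 18 libraries, coloured by group. The 3 libraries with sums of 1662, 1891 and 2018 outside the day 7 injured group have high Trem2 and low Lyve1 for their groups.

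Naïve library 5, day 1 injured library 2 and day 1 contralateral library 3 were low for Lyve1, with 7.00, 10.9 and 8.88 CPM, each the lowest of its group. What set them apart, and its part in the Trem2 and Lyve1 values, was not tested. Their totals were 22656875, 27495721 and 41794005 estimated counts, the last being the deepest library of the study.

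Counts of Trem2 were divided among 4 annotated transcripts, of which 1 retains an intron (Trem2-203) and held 28.7% of them. The main coding transcript Trem2-201 was at 9.94, 9.30 and 9.66 CPM in day 7 injured libraries. Naïve libraries had between 2.20 and 8.50 CPM of it, with a median of 3.11. The injured libraries were above all naïve ones, library 5 included (exact permutation test, two-sided p = 0.0238, the smallest that 3 against 6 libraries allow). The retained-intron transcript took 13.25%, 12.5% and 20.4% of Trem2 counts in day 7 injured libraries and between 26.45% and 48.4% in naïve ones, again without overlap (exact permutation test, p = 0.0238). These transcript measures were tested after their values had been seen. Over the 14 tests of single Trem2 and Cd163 transcripts the adjusted p was 0.0833, so neither passed the correction. Summed coding transcripts of both genes were tested too, outside this correction. Uninjured knees could reach such values, since day 1 contralateral library 3 had 10.42 CPM of Trem2-201, above all 3 day 7 injured libraries, and 65.0% of its Trem2 counts in it. Day 1 contralateral library 3 and day 7 contralateral library 1 also had low shares of the retained intron, 21.3% and 15.7%.

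**Figure D4:**
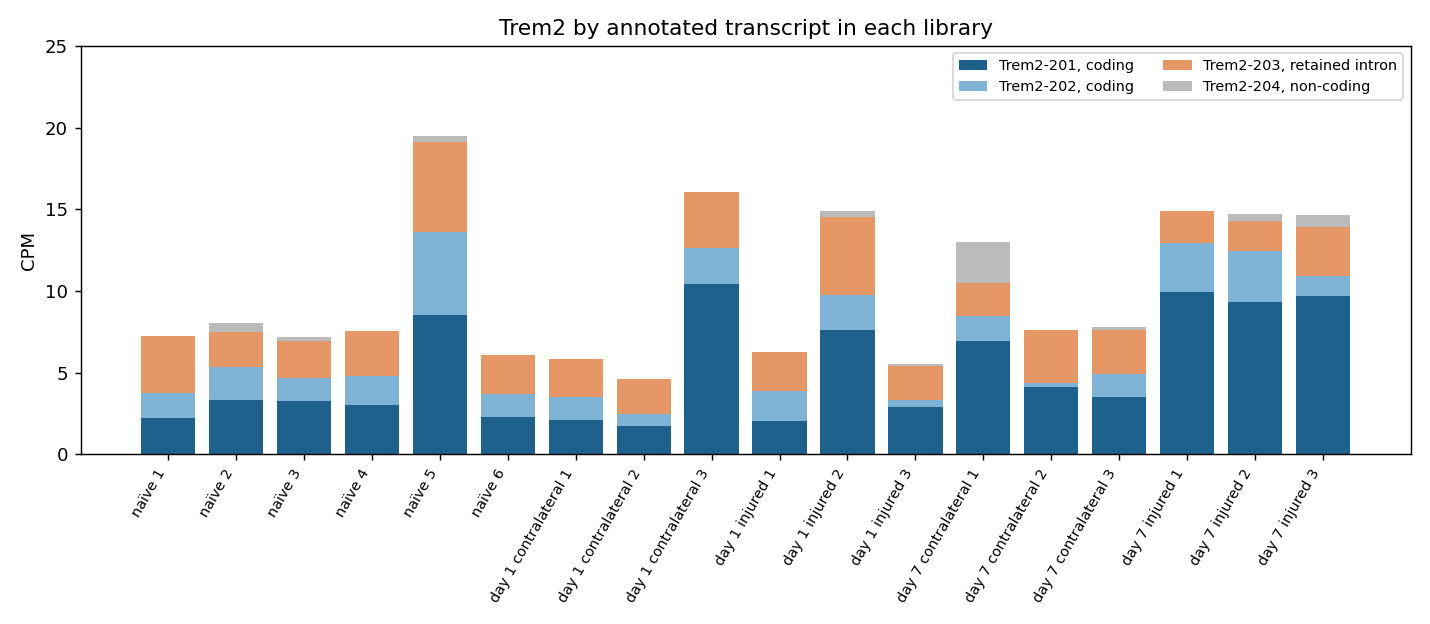
Estimated level of each annotated Trem2 transcript (CPM, stacked bars from 0) in each of the 18 libraries. Trem2-201 makes up 63.2% to 66.7% of the bar in the 3 day 7 injured libraries, 30.4% to 45.0% in the naïve ones and 65.0% in day 1 contralateral library 3.

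Genes around the panel were grouped by role, and each list is described by its counts beside the shares of all genes, 10.4% called higher and 6.11% lower. Among ligands and receptors of the Csf1r axis and related growth factors, 0 of 5 tested genes were called. Csf1, the main ligand, was at 59.0 ± 10.6 CPM in naïve (SD, n = 6) and 56.0 ± 2.99 CPM in day 7 injured cartilage (SD, n = 3), and Il34, the second ligand, was at 6.12 ± 0.721 and 6.82 ± 0.648 CPM. Neither differed beyond the spread of its libraries (log2 fold changes of -0.06 and 0.18, FDR 0.838 and 0.411). The log2 fold change of Csf3r, the receptor for granulocyte colony-stimulating factor, was -0.49 with an FDR of 0.00261, below the fold limit. Csf2 and Csf3 were too low to be tested.

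Among 10 macrophage transcription factors, Maf, which is known from resident macrophages, was higher and below the fold limit (log2 fold change 0.57, FDR 2.06e-04). Spi1, which encodes PU.1, had a log2 fold change of -0.27 (FDR 0.0753) and Irf8, a monocyte factor, -0.46 (FDR 0.00430). The list median was -0.22. Of 22 genes expressed across myeloid cells, Ms4a7 alone was called, at 11.9 ± 6.13 CPM in naïve (SD, n = 6) and 25.2 ± 2.19 CPM in day 7 injured cartilage (SD, n = 3; log2 fold change 1.09, SE 0.34, FDR 0.0252). Without day 7 injured library 2 or 3 its FDR was 0.0737 or 0.0805, and without the 3 libraries that stood apart its log2 fold change was 1.41. The leukocyte antigen Ptprc had a log2 fold change of -0.33 (FDR 0.00725), and C1qb, which encodes a chain of complement C1q made largely by macrophages, 0.58 (FDR 0.00718). The list median was -0.06.

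**Figure D5:**
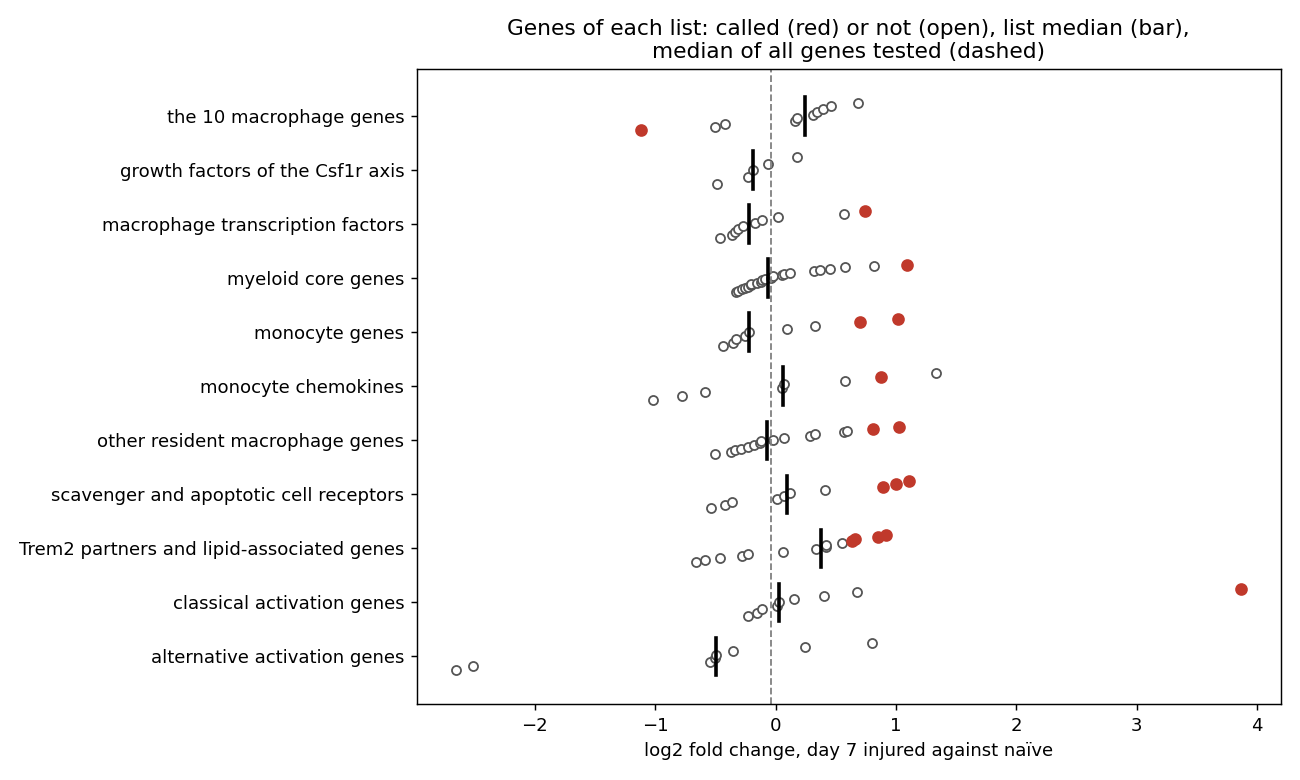
The log2 fold change of every tested gene in 11 macrophage-related lists, day 7 injured against naïve cartilage. Red points were called, open points were not, bars are list medians and the dashed line is the median of all genes tested (-0.04). The medians lie between -0.50 and 0.38, and called genes of the other lists lie to the right of 0.

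Of 9 monocyte genes, 2 were called higher, Nr4a1, an immediate early factor needed by patrolling monocytes (log2 fold change 1.02, FDR 0.0222), and Ace, the angiotensin-converting enzyme (0.71, FDR 9.81e-04). The first of these rested on day 7 injured library 3, without which it was 0.49 with an FDR of 0.270. Ccr2 and Ly6c2, the markers of inflammatory monocytes, had log2 fold changes of -0.33 and -0.26 with an FDR of 0.358 and 0.538. Of 8 chemokines that attract monocytes, Cx3cl1 was called, at 5.71 ± 0.630 CPM in naïve (SD, n = 6) and 10.35 ± 0.930 CPM in day 7 injured libraries (SD, n = 3; log2 fold change 0.88, SE 0.13, FDR 1.64e-04). This chemokine is made by endothelium and fibroblasts and binds Cx3cr1.

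Among 16 other genes of resident macrophages, 2 were called higher and none lower, with a median of -0.07. Gas6, the bridging ligand between phosphatidylserine and the Tyro3, Axl and Mertk receptors, was at 117.8 ± 8.44 CPM in naïve (SD, n = 6) and 236.1 ± 6.46 CPM in day 7 injured cartilage (SD, n = 3; log2 fold change 1.02, SE 0.09, FDR 5.30e-07). Stab1, a scavenger receptor of macrophages and sinusoidal endothelium, had a log2 fold change of 0.81 (FDR 0.00305). The other genes of this list include Siglec1, Cd5l, Clec10a and Mgl2, with log2 fold changes of -0.12, -0.29, 0.07 and -0.51 and an FDR of at least 0.223 each. Of 10 tested receptors for debris and apoptotic cells, Tyro3 (1.11), Lrp1 (1.00) and Colec12 (0.89) were called higher on the log2 scale, with an FDR of at most 0.00384 (Tyro3 was at 1.21 without the 3 libraries that stood apart), and Axl (0.41, FDR 0.00234) and Mertk (0.12, FDR 0.296) were not called. Lrp1 and Colec12 are also known from fibroblasts and endothelium.

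The 14 partners of Trem2 and genes of lipid-laden macrophages had the highest median of these lists, 0.38, with 4 called higher and none lower. These were Apoe, the apolipoprotein that Trem2 can bind (186.3 ± 23.6 CPM in naïve, n = 6, and 331.2 ± 39.5 CPM in day 7 injured libraries, n = 3, SD; log2 fold change 0.85, FDR 1.49e-04), Gpnmb, a lysosomal glycoprotein (0.92, FDR 0.0209), the tetraspanin Cd9 (0.66) and the lysosomal protease Ctsb (0.64). Gpnmb was not called without day 7 injured library 2 or 3, with an FDR of 0.0556 or 0.0927. Without naïve library 1, Ctsb was at 0.57 and short of the fold limit. Tyrobp, the adaptor that Trem2 needs, had a log2 fold change of -0.23 (FDR 0.198), and the kinase Syk -0.28 (FDR 0.00699).

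Classical activation genes had 1 of 9 called, Ptgs2, the inducible cyclooxygenase, which many cell types make (log2 fold change 3.87, SE 0.65, FDR 3.57e-04, and 4.37 without the 3 libraries that stood apart). Il1b and Tnf had log2 fold changes of 0.16 and -0.23 with an FDR of 0.688 and 0.301. Of 8 alternative activation genes tested, none was called, and 6 had a negative log2 fold change.

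Markers of other cells moved in the same comparison, and their part in the macrophage values was not tested. Of 11 neutrophil markers 2 were called lower, S100a8 and S100a9, and all 11 had a negative log2 fold change, with sums of 12410 ± 1977 CPM in naïve (SD, n = 6) and 9203 ± 1596 CPM in day 7 injured libraries (SD, n = 3), most abundantly Ngp. Of 9 erythroid markers 4 were called lower, with sums of 34590 ± 3944 and 22590 ± 5466 CPM and Hbb-bs as the most abundant gene. The neutrophil sums of the groups overlapped (10360 to 15250 and 8081 to 11030 CPM), whereas all day 7 injured libraries lay below all naïve ones for the erythroid sum (16740 to 27560 and 30880 to 41380 CPM). Of the neutrophil and erythroid calls, S100a8, S100a9, Hba-a1 and Slc4a1 were lost without at least 1 library, among them day 7 injured library 3.

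Osteoclasts, which arise from the same lineage and express Csf1r and Trem2, had 1 of 10 markers called, the protease Ctsk (log2 fold change 1.25, FDR 2.52e-05). Their markers summed to 1765 ± 270 CPM in naïve (SD, n = 6), 2184 ± 99.9 CPM in day 7 injured and 2471 ± 282 CPM in day 7 contralateral libraries (SD, n = 3 each), with Mmp9 as the most abundant. Of 7 dendritic cell markers and 8 B cell markers 1 each was called lower, Siglech and Ms4a1. None of 6 T cell, 6 mast cell or 8 cell cycle markers was called.

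Higher calls were made for 4 of 8 blood endothelial, 2 of 6 lymphatic endothelial, 3 of 8 synovial fibroblast, 2 of 7 osteoblast and 3 of 10 chondrocyte markers. The osteoblast markers summed to 13080 ± 3912 CPM in naïve (SD, n = 6) and 51680 ± 3882 CPM in day 7 injured libraries (SD, n = 3), nearly all of it Col1a1. The synovial fibroblast sum was 1088 ± 345 CPM in naïve and 1950 ± 624 CPM in day 7 injured libraries. No list of cell type markers had a gene at or under 3 counts in all 18 libraries.

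Against the contralateral knees at day 7, where 9.33% of 21262 genes were called higher and 3.23% lower, 0 of the 10 macrophage genes were called higher and 1 lower, Cd163. The median log2 fold change of the 10 was 0.24, beside -0.05 for all genes. Between injured knees at day 7 and day 1, 9.04% of genes were called higher and 6.38% lower, and of the 10 again none was called higher and 1 lower, Timd4. Trem2 had a log2 fold change of 0.74 (FDR 0.294) and Lyve1 of -0.60 (FDR 0.290) there. Without the 3 libraries that stood apart both were called, with Adgre1, at 1.31 (FDR 5.29e-05) and -0.93 (FDR 0.0165), and since day 1 injured library 2 was the highest of its group for Trem2 and the lowest for Lyve1, this too is a description and not a test. The share of all genes called in that fit is not given. Without a limit on the fold, 1 of the 10 was higher (Adgre1) and 2 were lower (Timd4 and Cd163), beside 16.2% and 8.2% of all genes. These comparisons share the day 7 injured libraries and are not independent of each other.

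At day 1 no macrophage gene was called in any comparison. Injured and naïve knees gave log2 fold changes between -0.18 for Timd4 and 0.19 for Lyve1, injured and contralateral knees between -0.44 for Timd4 and 0.52 for Lyve1, and contralateral and naïve knees between -0.34 for Lyve1 and 0.26 for Timd4. The lowest FDR of the 10 was 0.987, 0.764 and 1.000 in turn. Of all genes, 0% were called higher and 0% lower in each of the 3 comparisons by edgeR, and at an unadjusted p under 0.05 there were 959, 1383 and 554 genes, none of them a member of the panel. On the TPM scale, which is not corrected for composition, all 10 had a higher mean in day 1 injured than in naïve libraries. The 2 groups did not overlap in TPM for Mrc1 (means of 20.3 and 14.4), Folr2 (6.37 and 4.13), Vsig4 (3.32 and 2.19) and Cd163 (10.3 and 7.17). These TPM differences were not tested, and the share of all genes that did so is not given. The day 7 contralateral knees did not differ from naïve knees in any called gene either (0% higher, 0% lower), although 3220 genes, 15.1% of those tested, had an unadjusted p under 0.05, Csf1r among them. Over these 4 comparisons DESeq2 called 15, 0, 2 and 31 genes, in the order given, and none of the 10. Csf1r had the lowest FDR of the 10 there (0.248), and Cd163 had a log2 fold change of 0.29 with an FDR of 0.342.

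Whether injury acted differently on day 7 than on day 1 was tested as an interaction, for which 3.53% of genes were called higher and 0.245% lower. None of the 10 was called. Cd163 came closest, with an injury effect lower by 0.76 on the log2 scale at day 7 than at day 1 (SE 0.23, FDR 0.0806), followed by Adgre1 with 0.52 (SE 0.25, FDR 0.316). With DESeq2 the interaction of Cd163 was called (log2 -0.78, FDR 0.0345), and without day 7 contralateral library 1 it was -0.46 with an FDR of 0.131 by edgeR.

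Genes whose pattern over the 18 libraries was most like the mean of the 10 were Ipo8, Ripk1, Litaf, Anxa7, Ube2k, Ube2l3, Polr2b, Rps6ka3, Uba6 and Emc4, with Pearson's r from 0.88 for the first to 0.83 for the last. The libraries share groups, depth and composition, and only 3 of these 10 genes were again among the first 10 without day 7 contralateral library 1, and 3 without the day 7 injured group. Among the members themselves r ran from -0.82 (Cd68 with Cd163) to 0.72 (Adgre1 with Trem2), so they shared no single pattern. The members had no common neighbours among their own 3 most alike genes. These were Rdh10, Fam129b and Ier3 for Trem2 (r from 0.94 to 0.92), Aldh6a1, Acss3 and Gstz1 for Lyve1 (0.93 to 0.91), Gm10603, Nxpe2 and Mst1 for Timd4 (0.95), and Sost, Tex2 and Map3k9 for Cd163 (0.95 to 0.91). Without the day 7 injured group, Rdh10 stayed among the first 3 for Trem2, and Aldh6a1 and Gstz1 for Lyve1. None of those named for Timd4 or Cd163 did.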

How the data were processed

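RNA of pooled cartilage was sequenced by the authors as ribosome-depleted, stranded, paired-end libraries. By the methods, reads were trimmed with Trimmomatic, quantified by kallisto pseudo-alignment against GRCm38 transcripts, summarised with Tximport and tested with limma-voom, with duplicateCorrelation to account for knees from one pool of mice. The processing notes in the labels name kallisto, DESeq2 and GRCh38, which does not match the mouse transcript identifiers. The authors deposited estimated counts, TPM and effective lengths per transcript, without further normalization.

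Of 137436 transcripts, 135107 (98.3%) were matched without version to GENCODE M21 (GRCm38), and the rest, with between 0.667% and 3.90% of the counts of a library, were left out. Deposited estimated counts were summed per gene and rounded, and deposited TPM were summed. The main test was edgeR's quasi-likelihood test (edgeR 4.0.16, R 4.3.3) with group means, TMM factors, edgeR's filter on low counts and Benjamini-Hochberg adjustment over all genes tested. Comparisons without the day 7 contralateral group used the other 15 libraries (21129 genes), the others all 18 (21262 genes). CPM of single genes were normalized over 18 libraries. Each standard error was derived from the F statistic of the fold change. Alternatives used DESeq2 1.42.0, limma 3.58.1, other filters, thresholds and libraries, and the test was tried on simulated data. The methods remove 1 ACL library for low mapping without naming it. Libraries are pools, and p-values measure the spread between them.

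Results for some list genes are not reported here. The 10 genes and all lists were chosen with earlier results of these data known. Named were all 10 genes in each comparison, and of the lists the genes called between day 7 injured and naïve libraries and the ligands, partners and transcription factors of the panel. Likeness was Pearson's r of log2 CPM (prior count of 2) to the mean z-score of the 10 genes.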

Additional observations from a re-analysis of the deposited data

Results flagged for a closer look

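Among the 6 naïve libraries, single libraries stood far from the others for 8 of the 46 genes checked, where chance flags about 1 in 20 groups. Naïve library 5 was the high one for Trem2 (19.46 CPM, next 8.02), Ms4a7 (24.07 CPM, next 11.5), Ptgs2 (7.12 CPM, next 2.78), Tyro3 (3.62 CPM, next 2.67) and Cd68 (58.69 CPM, next 44.7). Naïve library 1 was low for Csf1r (154.4 CPM, next 195.7) and high for Timd4 (5.28 CPM, next 4.28). Naïve library 2 was high for Gas6 (134.3 CPM, next 118.2).

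The injury effect, injured minus contralateral on the log2 scale, was larger at day 7 than at day 1 by the interaction test of edgeR for 8 of the named genes, which had been named because they were called between day 7 injured and naïve libraries. Of all genes, 3.53% were called higher and 0.245% lower in this test. These were Cx3cl1 (0.91, FDR 0.0351) and Gas6 (0.84, FDR 0.0108) of the macrophage lists, the endothelial gene Pecam1 (0.74, FDR 0.0216), the fibroblast genes Thy1 (1.75, FDR 8.36e-04), Pdgfra (0.90, FDR 0.0260) and Dkk3 (3.52, FDR 5.97e-05), and the chondrocyte genes Acan (1.31, FDR 0.0463) and Sox9 (1.44, FDR 0.0135). Among all list genes 1 was called the other way, the osteoblast factor Sp7 (-0.90, FDR 0.0422), which is given here because of its value.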

How the results depend on the processing

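The lower Timd4 in day 7 injured against naïve cartilage was called under every alternative run. The number of the 10 genes called in that comparison, 1, was 4 without a fold limit, 2 with protein-coding transcripts alone (Cd163 added), 1 to 2 when each library was left out in turn (Trem2 added without naïve library 5), and 3 without the 3 libraries that stood apart, an alternative chosen after seeing the data. Against the contralateral knees, 1 became 2 with DESeq2 or coding transcripts alone (Timd4 added), 0 on the compared groups alone, 1 to 2 with a library left out (2 without day 1 injured library 2 or day 7 injured library 2, and Timd4 in place of Cd163 without contralateral library 1), and 3 without the 3 libraries. Against day 1 injured knees, 1 became 0 at an FDR of at most 0.01 or on the compared groups alone, 3 without a fold limit, 2 with transcript length as an offset (Adgre1 added), 0 to 1 with a library left out (0 without day 7 injured library 3, and Adgre1 in place of Timd4 without day 1 injured library 2), and 3 (Adgre1, Trem2 and Lyve1) without the 3 libraries. For the fits without the 3 libraries against contralateral and against day 1 injured knees, the share of all genes called is not given. The interaction gained 1 call, Cd163, with DESeq2. Counts at day 1 and for day 7 contralateral against naïve knees stayed at 0 throughout. The genes that did not overlap between day 7 injured and naïve libraries were 3, and 3 to 6 with a library left out (6 without naïve library 5). Of the most alike genes, 3 were kept without the day 7 injured group and 3 without day 7 contralateral library 1.

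With a library left out, the log2 fold change of Vsig4 against naïve cartilage ran from -0.015 to 0.35 and that of Lyve1 between day 1 injured and naïve cartilage from -0.074 to 0.49, so both changed sign. No other did among the single-gene fold changes for which this was run. No paired analysis was possible because the labels do not tie knees to mice. The study's own test accounted for shared mouse pools, and p-values here, the permutation tests included, take left and right knees as independent. Low counts limit Timd4, Vsig4 and Folr2, and 3 libraries per injured or contralateral group limit all comparisons.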
